A study of Rattus norvegicus with 32 samples.

Results

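Tgfb1, Tgfb2, Tgfb3, Bmp3, Bmp4 and Msx1 were followed across the mammary glands of 5 inbred rat strains and 1 F1 hybrid. The members were every probe set on the array whose gene symbol is one of these 6 names. There were 8 such probe sets of 8799 on the array, 1 each for Tgfb1, Tgfb2, Bmp4 and Msx1 and 2 each for Tgfb3 and Bmp3, and 6 genes of the 4737 that had a probe set with a single symbol. RNA from normal mammary gland was hybridised to Affymetrix rat arrays, with 5 single-sample arrays in each of 6 groups, 30 in all. The groups were the hybrid of Cop and F344 (F1), and the inbred strains Cop (Copenhagen), F344, ACI, BUF/N and WF. A pool of Cop RNA and a pool of F344 RNA had 1 array each and entered no test. The study's title concerns inherited differences between rat strains in how readily mammary cancer arises. As background, Cop rats are known for resistance to chemically induced mammary tumours, a trait their hybrids share, while the strains F344, BUF/N and WF develop such tumours readily. No treatment is named for any group, and age, sex, hormonal state and batch were not given in the labels used here, nor whether each sample stands for its own animal. The tests therefore use the spread among samples, which may be partly technical.

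The transforming growth factor beta (TGF-beta) ligands and the bone morphogenetic proteins (BMPs) are secreted signals of one superfamily. They bind paired serine/threonine kinase receptors, which activate Smad proteins that carry the signal to the nucleus. In the mammary gland of the mouse, TGF-beta restrains duct growth, TGF-beta 3 rises when milk is retained after weaning, and BMP4 signalling together with the homeobox factors MSX1 and MSX2 acts in the formation of the mammary bud.

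Bmp3 and Msx1, the members with the clearest differences between strains, both lie on rat chromosome 14. Their upstream sequences are shown because these are the genes whose signal separated Cop from other strains. Each is the 250 bases that end just before the annotated gene start, from RefSeq on the GRCr8 build, which is the genome of another strain and not of the rats measured. The Bmp3 window is chr14:11041283-11041532 on the minus strand and the Msx1 window is chr14:77185552-77185801 on the plus strand. Capitals mark matches to 6 short motifs searched on both strands. These were the TATA box core TATAAA, the GC box GGGCGG, the CCAAT box, the Smad box CAGAC, the Smad GC element GGCGCC and the Msx homeodomain core CAATTA. None of the 6 contains another.
Bmp3: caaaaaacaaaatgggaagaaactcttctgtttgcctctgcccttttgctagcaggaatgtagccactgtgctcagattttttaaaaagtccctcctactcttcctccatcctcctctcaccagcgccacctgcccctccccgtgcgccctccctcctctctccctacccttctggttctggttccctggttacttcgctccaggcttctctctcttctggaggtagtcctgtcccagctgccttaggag
Msx1: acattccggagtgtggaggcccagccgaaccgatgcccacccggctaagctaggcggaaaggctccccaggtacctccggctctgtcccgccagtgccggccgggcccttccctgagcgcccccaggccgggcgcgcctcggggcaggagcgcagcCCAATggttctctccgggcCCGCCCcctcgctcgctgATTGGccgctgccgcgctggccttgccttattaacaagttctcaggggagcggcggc
The Msx1 window held 2 CCAAT boxes, 94 and 57 bases before the start, with 1 GC box between them at 75 bases, and its GC content was 71.2%. In the Bmp3 window no motif matched, and the GC content was 53.6%. Over 33469 promoters of the same table, 34% of the windows held a CCAAT box, 30.5% a GC box, 12.9% a TATA box core, 42.9% a Smad box, 8.7% a Smad GC element and 7.3% an Msx core, and the median GC content was 51.2%. These matches are descriptions of the letters only.

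Signals are Affymetrix Microarray Suite values on a linear scale, which the authors scaled so that each array had the same trimmed mean, 249.99 with 2% trimmed at each end. Before the tests, values under 18.3, the 25th percentile, were set to 18.3 and log2 was taken. Only probe sets with 5 or more arrays over 78.4, the median of all values, were tested, 5039 in number. Of the members, 7 of 8 passed this filter and Bmp4 did not. A call is an adjusted p under 0.05 from limma with Benjamini-Hochberg adjustment over all 5039 probe sets within each comparison, and a difference is the first group minus the second on the log2 scale. Levels are compared between groups for 1 probe set at a time. A ratio of the 2 probe sets of a gene is used only to compare arrays, since its own size has no meaning for the level. Arrays of 1 group correlated at 0.846 to 0.978 over the tested probe sets. F1 replicates 2 and 3 and ACI replicate 5 had the lowest median correlations with their own group, at 0.877, 0.885 and 0.890. WF replicate 1 followed at 0.910, F1 replicates 4 and 5 at 0.911 and ACI replicate 2 at 0.912. The median signals of ACI replicates 2 and 5 were 102.1 and 101.8, against 65.8 to 86.8 on the other single-sample arrays. Results that rest on the 2 F1 arrays are given with and without them.

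Marker lists for the cell types of mammary tissue were followed on the same arrays. No gene of the luminal, myoepithelial, milk protein, fibroblast or adipocyte lists was at the floor on all 30 arrays. This does not show that each gene was present on every array. Of the milk protein genes, Wap averaged 19.3 in Cop, near the floor, and Csn1s2a 16.8 in F344, under it. Fewer cells of a type and less RNA per cell cannot be told apart in such bulk samples.

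Across the 6 groups, 6 of the 7 tested member probe sets passed the F test, beside 51.8% of all tested probe sets. Tgfb2 was the one that did not. Over the 15 pairs of groups the 7 probe sets gave 36 calls, and 15.8% of all tests over the same pairs were calls. Bmp3 gave 7 and 11 of them at its 2 probe sets, Msx1 and Tgfb1 5 each, Tgfb3 3 and 5, and Tgfb2 0. All Msx1 calls had Cop on 1 side, and all Tgfb1 calls had F1. Cop was also in calls at each Bmp3 and Tgfb3 probe set, among them those against BUF/N and WF, as the map of differences shows.

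**Figure D1:**
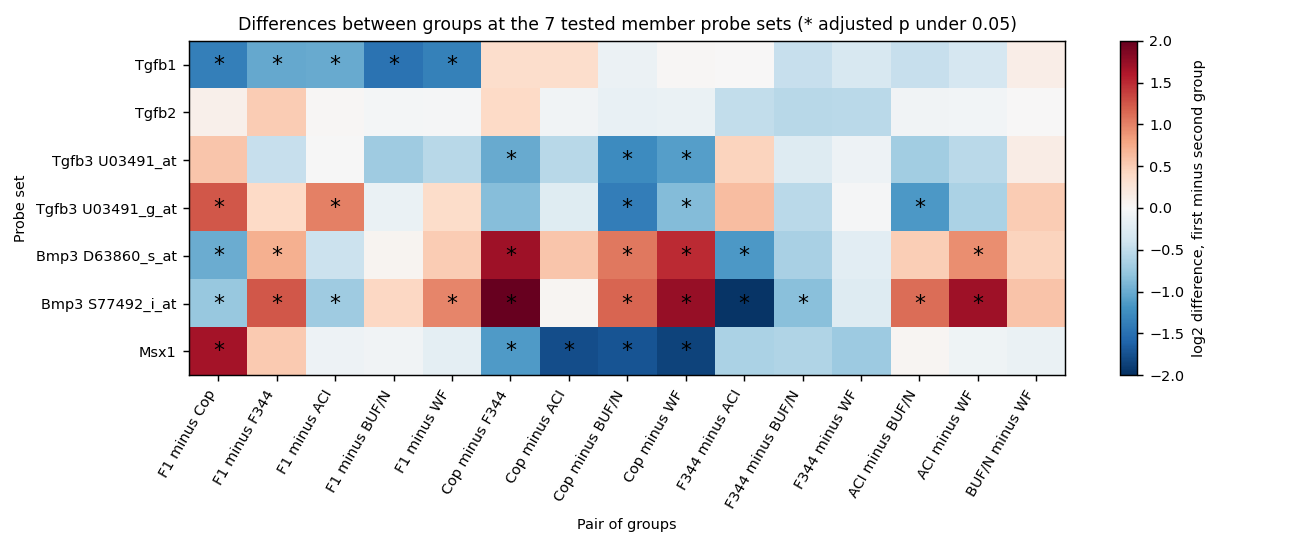
log2 difference between the first and the second group (colour) for the 7 tested member probe sets (rows) and the 15 pairs of groups (columns). Stars mark adjusted p under 0.05. Tgfb1 has its 5 stars in the 5 columns with F1, Msx1 in the 5 columns with Cop, and Tgfb2 has 0.

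Msx1, a homeobox transcription factor, was lower in Cop than in every other group. Its signal was 219.7, 189.4, 245.4, 209.8 and 151.6 on the 5 F1 arrays and 59.1, 38.2, 60.4, 93.1 and 81.7 on the 5 Cop arrays. F344 had 147.6, 118.6, 171.5, 133.2 and 129.2, and ACI had 283.5, 320.3, 98.2, 180.9 and 294.1. BUF/N had 265.9, 161.1, 267.8, 186.7 and 190.0, and WF had 275.5, 252.2, 231.1, 232.2 and 173.6. The highest Cop value, 93.1, lay below the lowest value of each other group, the closest being 98.2 in ACI replicate 3, which stood well below the other ACI arrays. Cop averaged 66.5 ± 21.4, against 140 ± 20.4 in F344, 235 ± 93.2 in ACI, 214 ± 49.3 in BUF/N and 233 ± 37.8 in WF (SD, n = 5 each). Msx1 in Cop was therefore 2.19-fold lower than in F344 (log2 difference -1.13 ± 0.25 SE, adjusted p = 0.00722), and 3.40-fold lower than in ACI, 3.30-fold lower than in BUF/N and 3.62-fold lower than in WF (adjusted p = 3.14e-05, 1.35e-05 and 6.7e-06, limma). A signal lower in Cop than in each other inbred strain, with all 4 tests passed, was found for 0.397% of the tested probe sets. It held for Msx1 in all 30 fits that left out 1 array.

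In the hybrid, Msx1 lay on the far side of F344. F1 averaged 203 ± 35.2, against 66.5 ± 21.4 in Cop and 140 ± 20.4 in F344 (SD, n = 5 each). It was 3.16-fold higher in F1 than in Cop (adjusted p = 3.17e-05, limma) and 1.44-fold higher than in F344, which missed the threshold (adjusted p = 0.111). Against the mean of its parents F1 was higher by 1.09 ± 0.22 on the log2 scale (adjusted p = 0.000398), and by 1.03 without F1 replicates 2 and 3 (adjusted p = 0.00716). On a scale where F344 is 0 and Cop is 1, F1 stood at -0.47. In order of mean log2 signal the groups ran WF, ACI, BUF/N, F1, F344 and Cop, and of these neighbours F344 and Cop were the pair that passed the test. F344 against WF was near the threshold (log2 difference -0.73, adjusted p = 0.0597), with no overlap of their arrays. The pools, which have no replicate, had 32.3 for Cop and 176.1 for F344, the first below each of the 5 Cop arrays and the second above each of the 5 F344 arrays.

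**Figure D2:**
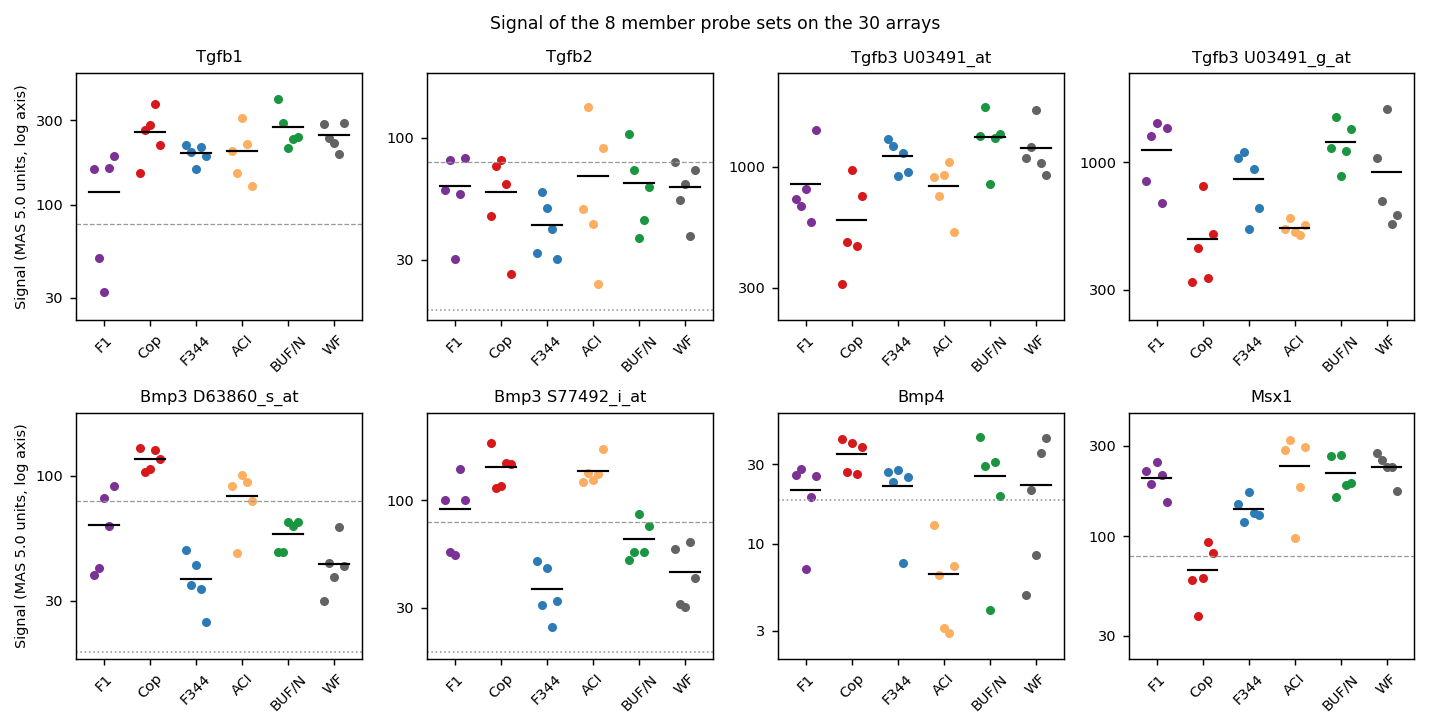
Signal of each of the 8 member probe sets on the 30 arrays (log axis, MAS 5.0 units), by group. Points are single arrays, black lines group means, the dashed line the overall median of 78.4 and the dotted line the floor of 18.3. The 5 Cop points of Msx1 (38.2 to 93.1) lie below all others of that gene, and 2 F1 points of Tgfb1 (32.2 and 50.5) lie below the rest.

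Markers of luminal epithelium, the cells that line the ducts, were also low in Cop. The summed signal of the 7 luminal markers on the array (Krt8, Krt18, Krt19, Cldn3, Cldn7, Muc1 and Epcam) ranged from 4907 to 7834 in F1, 2275 to 4500 in Cop, 4360 to 6168 in F344, 3800 to 6178 in ACI, 6826 to 8535 in BUF/N and 6353 to 8448 in WF. As a description over 30 arrays, which share strain within groups of 5, Msx1 correlated with the mean level of these markers at r = 0.667, and at -0.048 once each group's own mean was removed. The part of the luminal markers in the Msx1 difference was not tested. Myoepithelial markers also moved with Msx1 (r = 0.554, and 0.057 within groups). Adipocyte markers ran the other way (r = -0.730, and -0.339 within groups), with 10 genes summing to 22424 to 25276 in F1, 23172 to 29746 in Cop, 22659 to 25083 in F344, 20246 to 22452 in ACI, 15166 to 19994 in BUF/N and 17467 to 25530 in WF. So did macrophage markers, by the 4 tested genes of their list (r = -0.675, and -0.367 within groups). The 5 macrophage genes on the array summed to 3577 to 5667 in F1, 4852 to 6064 in Cop, 4409 to 5845 in F344, 2802 to 5007 in ACI, 3381 to 4813 in BUF/N and 3028 to 4560 in WF. The part of these lists in the Msx1 difference was not tested.

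**Figure D3:**
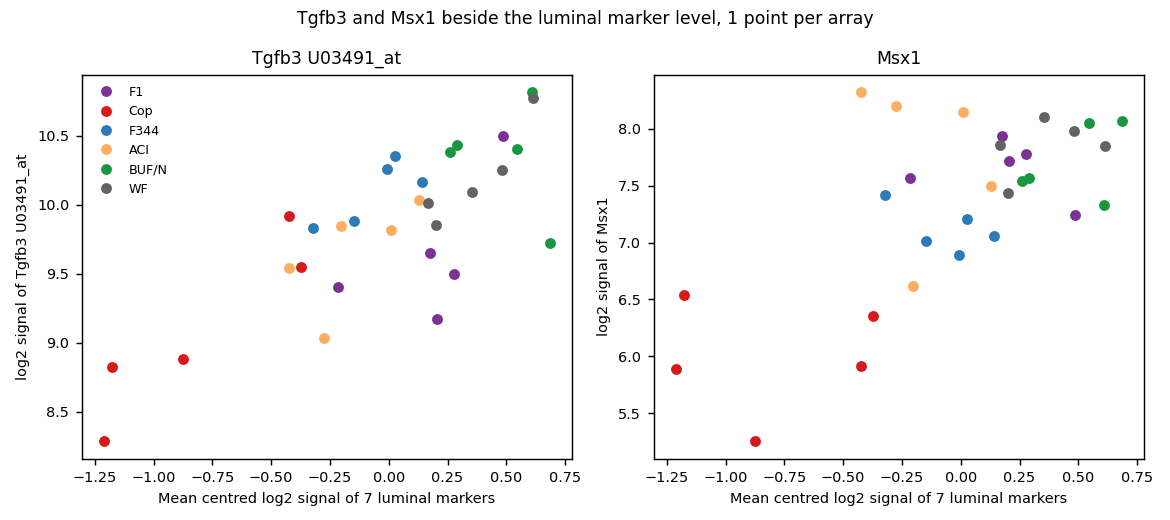
log2 signal of Tgfb3 (probe set U03491_at, left) and Msx1 (right) against the mean centred log2 signal of 7 luminal markers, 1 point per array, coloured by group. Over all arrays r was 0.790 for Tgfb3 and 0.667 for Msx1, and within groups 0.682 and -0.048.

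Bmp3, a ligand known in bone as an inhibitor of other BMPs, was high in Cop, low in F344 and WF, and intermediate in the hybrid. At D63860_s_at the signal was 38.3, 41.0, 80.5, 61.8 and 90.7 in F1, and 130.8, 103.9, 106.1, 127.5 and 117.5 in Cop. It was 49.1, 34.9, 42.5, 33.7 and 24.5 in F344, and 90.2, 47.5, 100.2, 93.6 and 78.3 in ACI. BUF/N had 48.1, 47.9, 63.7, 61.3 and 63.8, and WF had 30.1, 43.2, 37.6, 60.7 and 41.9. All 5 Cop arrays lay above the other 25 at this probe set, while the other groups overlapped, with F1 spread from the range of F344 to that of ACI. How many of all tested probe sets have arrays without overlap was not counted, here or for the other members and pairs of groups.

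S77492_i_at, the other Bmp3 probe set, gave the wider range. F1 had 100.7, 56.0, 54.0, 141.4 and 100, and Cop had 190.9, 115.0, 117.4, 151.1 and 149.3. F344 had 50.6, 31.0, 46.9, 24.1 and 32.2, and ACI had 122.8, 135.3, 125.8, 134.7 and 178.1. BUF/N had 51.2, 56.1, 85.3, 55.7 and 75.2, and WF had 57.8, 31.3, 30.1, 62.3 and 41.9. Here Cop and ACI overlapped and both lay above all arrays of F344, BUF/N and WF, while F1 replicate 4 lay within the range of Cop and ACI, F1 replicates 2 and 3 within that of BUF/N and WF, and the other 2 F1 arrays between.

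Cop exceeded F344 by 3.24-fold and 4.00-fold at the 2 probe sets (log2 differences 1.70 ± 0.25 and 2.0 ± 0.27 SE, adjusted p = 4.1e-05 and 6.4e-06, limma), without overlap of arrays. Under other processing these log2 differences were as low as 0.947 and 1.159, and both calls were kept wherever tested. The low side was dim. At both probe sets 0 of 5 F344 arrays and 0 of 5 WF arrays were above the overall median of 78.4, though 0 were at the floor. Without detection calls, the Bmp3 fold sizes against F344 and WF cannot be taken as ratios of well-detected signals. Only 3.45% of all tested probe sets differed between Cop and F344, and 4 of the 7 member probe sets did, both of Bmp3 higher in Cop and 1 of Tgfb3 and that of Msx1 lower. Bmp3 was also higher in Cop than in BUF/N (2.07-fold and 2.24-fold, adjusted p = 0.00341 and 0.00195) and than in WF (2.81-fold and 3.33-fold, adjusted p = 0.000142 and 3.14e-05). ACI was above WF at both probe sets (1.91-fold and 3.23-fold, adjusted p = 0.0208 and 6.71e-05), and F344 below ACI at both (2.21-fold and 3.88-fold, adjusted p = 0.00332 and 7.74e-06). Between Cop and ACI no difference was called. At D63860_s_at the 5 Cop arrays lay above the 5 ACI arrays, with a log2 difference of 0.56 (95% interval 0.04 to 1.07, adjusted p = 0.181), and at S77492_i_at the difference was 0.04 (95% interval -0.50 to 0.59, adjusted p = 0.945). F344 was lower than BUF/N at S77492_i_at (adjusted p = 0.0245) and at D63860_s_at the adjusted p was 0.0604. Some of these calls did not hold in every fit. After quantile normalization F344 against ACI and ACI against WF at D63860_s_at and F344 against BUF/N at S77492_i_at were lost (adjusted p = 0.0627, 0.0726 and 0.0761). F344 against BUF/N at S77492_i_at was also lost with the floor at the 40th percentile and with an offset of 50 in its place (adjusted p = 0.158 and 0.0544). ACI against WF at D63860_s_at was lost when only the arrays of the 2 groups were fitted (adjusted p = 0.0984). With 1 array left out, ACI against WF at D63860_s_at was lost without WF replicate 1 (adjusted p = 0.0676), and F344 against BUF/N at S77492_i_at without F344 replicate 2, 4 or 5 or BUF/N replicate 3 or 5 (adjusted p = 0.0519 to 0.0767).

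F1 lay between its parents for Bmp3, at 0.42 and 0.62 on the scale where F344 is 0 and Cop is 1. At S77492_i_at F1 averaged 90.4 ± 36.4, against 145 ± 30.9 in Cop and 37.0 ± 11.3 in F344 (SD, n = 5 each). The difference from F344 passed the test (log2 difference 1.25, adjusted p = 0.000893) and was 1.66 without F1 replicates 2 and 3 (adjusted p = 0.000199). That from Cop was -0.75 (adjusted p = 0.0358), and -0.34 without the 2 arrays (adjusted p = 0.418), so this call rests on them; it was also lost without Cop replicate 1, 4 or 5 (adjusted p = 0.0602 to 0.104). At D63860_s_at the difference from Cop held without them (-0.99 with them, -0.96 without, adjusted p = 0.00503 and 0.0178), and that from F344 did not (0.71 and 0.74, adjusted p = 0.0329 and 0.0704), nor without any 1 of F1 replicates 3, 4 and 5 or F344 replicates 2, 4 and 5 (adjusted p = 0.0515 to 0.108). Against the mean of the parents F1 differed at neither probe set (-0.14 and 0.25, adjusted p = 0.659 and 0.422).

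The 2 Bmp3 probe sets placed the 6 groups in the same order by mean log2 signal, Cop, ACI, F1, BUF/N, WF and F344. Among neighbours in that order, 1 difference was called, F1 below ACI at S77492_i_at (adjusted p = 0.0443), and it was lost without F1 replicate 2 or 3 or ACI replicate 2, 3, 4 or 5 (adjusted p = 0.0522 to 0.147). The probe sets correlated at r = 0.796 over the 30 arrays and at 0.262 within groups, so they shared the differences between strains more than those between arrays of 1 strain. The signal of S77492_i_at over that of D63860_s_at was highest in ACI replicate 2, at 2.85, and F1 replicate 1, at 2.63. The single arrays of the pools had 109.4 and 153.5 for Cop and 45.2 and 31.7 for F344, in the order D63860_s_at then S77492_i_at.

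Luminal markers ran against Bmp3 over the 30 arrays (r = -0.516 and -0.519 at D63860_s_at and S77492_i_at), and within groups r was 0.12 and -0.156. Platelet markers moved with it (r = 0.505 and 0.616 over the arrays, -0.406 and 0.041 within groups). These r come from the 2 tested genes of the list. Pf4 passed the F test (adjusted p = 2.92e-06, limma) and Itga2b did not (adjusted p = 0.0871). The 3 platelet genes on the array summed to 585 to 832 in F1, 906 to 1379 in Cop, 408 to 590 in F344, 641 to 816 in ACI, 425 to 682 in BUF/N and 636 to 827 in WF. The part of the luminal or platelet list in the Bmp3 differences was not tested.

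**Figure D4:**
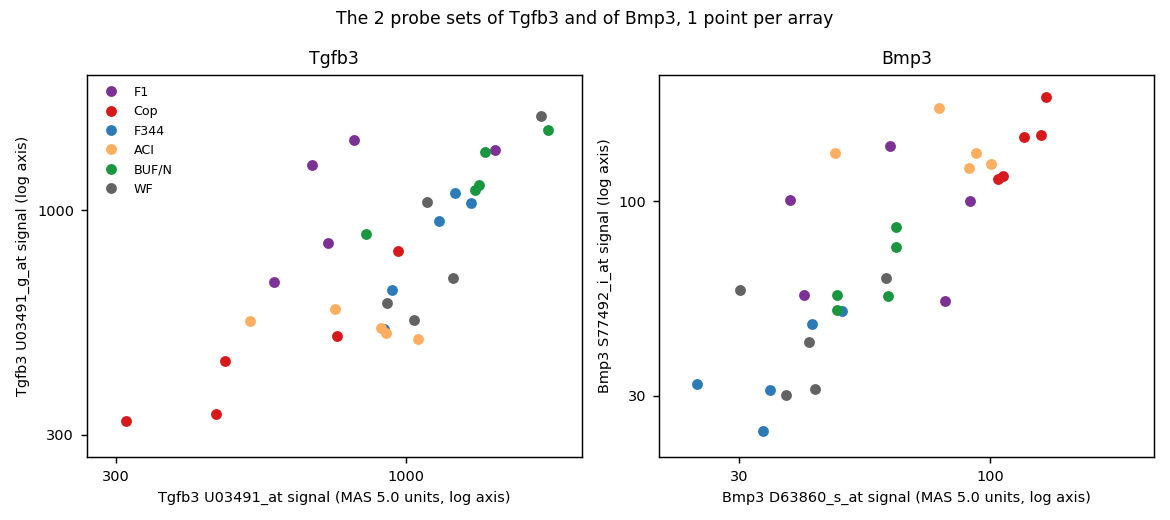
The 2 probe sets of Tgfb3 (left) and of Bmp3 (right) against each other, 1 point per array, both axes logarithmic in MAS 5.0 units, coloured by group. F1 replicates 2 and 3 have the highest ratios of U03491_g_at to U03491_at (1.89 and 1.81), and the Bmp3 points split by strain, with Cop at the upper right and F344 and WF at the lower left.

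Tgfb3, the TGF-beta isoform known for its role in the regressing gland, was lowest in Cop and highest in BUF/N. At U03491_at it was 722.0, 675.3, 803.3, 576.6 and 1442.4 in F1, and 312.2, 471.3, 965.3, 453.8 and 749.0 in Cop. F344 had 1309.7, 1225.9, 910.3, 1144.5 and 943.9, and ACI had 899.2, 744.7, 920.7, 1048.0 and 523.0. BUF/N had 1354.2, 1802.0, 844.5, 1331.3 and 1383.6, and WF had 1091.6, 1215.9, 1748.2, 1034.1 and 922.5. The groups overlapped, and Cop replicate 3 in particular lay within the range of F344, BUF/N and WF.

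U03491_g_at, the other Tgfb3 probe set, placed F1 higher. The values were 840.1, 1278.1, 1456.8, 680.4 and 1381.4 in F1, and 321.8, 445.3, 802.0, 335.6 and 508.8 in Cop. F344 had 1040.6, 1099.6, 529.8, 941.8 and 651.4, and ACI had 530.3, 588.7, 518.7, 502.2 and 552.7. BUF/N had 1143.3, 1537.1, 880.9, 1113.5 and 1368.4, and WF had 1044.8, 695.2, 1659.1, 556.1 and 606.5. All 5 BUF/N arrays lay above all 5 of Cop and of ACI, and the ACI values were close together.

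Cop was below BUF/N at both Tgfb3 probe sets (2.39-fold and 2.61-fold, adjusted p = 0.000784 and 0.000462, limma) and below WF at both (2.15-fold and 1.83-fold, adjusted p = 0.00444 and 0.0309). Both probe sets are named for the same sequence, U03491, so their results are not independent of each other. Against F344, Cop was 2.01-fold lower at U03491_at (adjusted p = 0.0238) and 1.80-fold lower at U03491_g_at, where the test was not passed (adjusted p = 0.0882). The first of these was lost without Cop replicate 1, 2 or 4 and without F344 replicate 1, 2 or 4 (adjusted p = 0.0568 to 0.0967), and the WF call at U03491_g_at without Cop replicate 1, 2 or 4 and without WF replicate 1 or 3 (adjusted p = 0.058 to 0.13). The BUF/N calls were kept in every fit that left out 1 array. ACI was 2.21-fold below BUF/N at U03491_g_at (adjusted p = 0.00478), with adjusted p = 0.0733 at U03491_at. By mean log2 signal the groups ran BUF/N, WF, F344, ACI, F1 and Cop at U03491_at, and BUF/N, F1, WF, F344, ACI and Cop at U03491_g_at, and no 2 neighbours in either order passed the adjusted test. Before adjustment the intervals excluded 0 for 2 of these pairs, F1 against Cop at U03491_at (log2 difference 0.55, 95% interval 0.017 to 1.085, adjusted p = 0.12, limma) and F344 against ACI at U03491_g_at (0.61, 95% interval 0.053 to 1.167, adjusted p = 0.135).

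For the hybrid the 2 Tgfb3 probe sets differed. U03491_g_at was higher in F1 than in Cop (2.37-fold, adjusted p = 0.00136), than in ACI (2.01-fold, adjusted p = 0.00716) and than the mean of the parents (log2 difference 0.82, adjusted p = 0.00789). At U03491_at none of these was called (log2 differences 0.55, -0.01 and 0.05, adjusted p = 0.12, 0.981 and 0.892). The ratio of U03491_g_at to U03491_at was 1.89 and 1.81 in F1 replicates 2 and 3, and 0.479 to 1.18 on the other 28 arrays. Without those 2 arrays the differences at U03491_g_at were 0.78 from ACI (adjusted p = 0.0786) and 0.60 from the mean of the parents (adjusted p = 0.129). Over the 30 arrays the probe sets correlated at r = 0.732, and at 0.714 within groups. In the pools Tgfb3 was at 755.1 and 441.8 for Cop and 1016.5 and 908.1 for F344.

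Tgfb3 moved with the luminal markers whose sums are given above. Over the 30 arrays r was 0.790 for U03491_at and 0.738 for U03491_g_at, and within groups 0.682 and 0.459, and the platelet markers ran against it (r = -0.623 and -0.315, within groups -0.213 and 0.146). The part of either list in the Tgfb3 differences was not tested. Cop replicates 3 and 5, with the highest luminal levels in Cop, also had the highest Tgfb3 of that strain, 965.3 and 749.0 at U03491_at.

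Tgfb1, the isoform made by many cell types and stored in matrix as a latent complex, was lowest in F1. It was 160.2, 50.5, 32.2, 162.5 and 188.2 in F1, and 151.9, 263.6, 283.5, 370.1 and 219.0 in Cop. F344 had 217.2, 198.8, 159.9, 212.4 and 189.9, and ACI had 201.5, 151.6, 310.3, 220.5 and 128.5. BUF/N had 394.8, 289.4, 209.4, 235.0 and 240.3, and WF had 287.3, 239.9, 222.8, 194.5 and 287.9. F1 replicates 2 and 3 were far below every other array, and the other 3 F1 arrays fell within the ranges of Cop, F344 and ACI. F1 averaged 119 ± 71.8, against 258 ± 80.7 in Cop, 196 ± 22.7 in F344, 202 ± 70.7 in ACI, 274 ± 73.6 in BUF/N and 246 ± 40.9 in WF (SD, n = 5 each).

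With all arrays Tgfb1 was lower in F1 than in each inbred strain, by 2.02-fold against ACI to 2.79-fold against BUF/N (adjusted p = 0.0267 and 0.00424, limma), a pattern of 1.91% of the tested probe sets. It was 2.29-fold lower than the mean of the parents (adjusted p = 0.00266). These differences rest on F1 replicates 2 and 3. Leaving out either one ended the calls against F344 and ACI (adjusted p = 0.0955 to 0.132), and leaving out ACI replicate 3 or 4 ended that against ACI (adjusted p = 0.0762 and 0.052). Without F1 replicates 2 and 3 together, F1 differed from the mean of the parents by -0.37 on the log2 scale (adjusted p = 0.249), and none of the 5 pairs was called (log2 differences -0.65 to -0.19, adjusted p = 0.097 to 0.645). All 5 pair calls were also lost when the spread was taken from the arrays of the 2 groups alone. Among the inbred strains no pair was called for Tgfb1, in the order BUF/N, Cop, WF, F344 and ACI, and the pools had 224.5 for Cop and 234.9 for F344.

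Tgfb2 and Bmp4 had the lowest mean signals of the members on these arrays. Tgfb2, the third TGF-beta isoform, ran from 23.7 to 134.8 with 7 of 30 arrays above the overall median, and its F test was not passed (adjusted p = 0.741). Its group means lay between 42.2 ± 12 in F344 and 68.2 ± 44.5 in ACI (SD, n = 5 each). For Cop against F344 the 95% interval of its log2 difference was -0.39 to 1.2, which does not exclude a change of more than 2-fold. Bmp4 ran from 2.9 to 43.8, with 10 of 30 arrays at or below the floor, among them all 5 of ACI, and none above the overall median. Its highest group was Cop, with 42.3, 27.1, 40.1, 26.4 and 38.0, and its lowest ACI, with 12.9, 6.5, 3.1, 2.9 and 7.4. With no filter on low signals Bmp4 had an adjusted p of 0.0678 in the F test, and the 1 pair called was Cop against ACI (adjusted p = 0.0261), where the ACI values are all at the floor.

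Set against each other by pair of groups, the member calls were 5 of 7 for F1 against Cop (26.3% of all tested probe sets), 3 for F1 against F344 (31.7%), 3 against ACI (29.2%), 1 against BUF/N (17.3%) and 2 against WF (15.2%). Besides the 4 for Cop against F344 there was 1 for Cop against ACI (7.60%), 5 against BUF/N (23.3%) and 5 against WF (12.8%). F344 had 2 calls against ACI (12.3%), 1 against BUF/N (23.8%) and 0 against WF (11.3%). ACI had 2 against BUF/N (13.7%) and 2 against WF (7.18%), and BUF/N had 0 against WF (2.22%). The 5 calls for Cop against BUF/N and against WF were those of the Tgfb3, Bmp3 and Msx1 probe sets. The arrays overlapped for Tgfb3 at U03491_at against both strains and at U03491_g_at against WF, and did not for Bmp3 and Msx1.

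F1 against the mean of Cop and F344 gave 3 of 7 calls, Tgfb3 at U03491_g_at and Msx1 higher and Tgfb1 lower, beside 35.2% of all tested probe sets. Of these, Msx1 alone was called without F1 replicates 2 and 3. Cop and F1 together against F344, BUF/N and WF together gave 4 of 7, beside 16.5%. Bmp3 was higher in Cop and F1, by 0.92 and 1.26 on the log2 scale (adjusted p = 0.000323 and 7.18e-06). Tgfb3 was lower at U03491_at (log2 difference -0.85, adjusted p = 0.000994) and not called at U03491_g_at (-0.41, adjusted p = 0.105), and Msx1 was lower (-0.74, adjusted p = 0.00274). For Msx1 the 2 groups on the first side did not move alike, since F1 was 3.16-fold above Cop. For Bmp3, F1 alone was called against F344 at both probe sets and against WF at S77492_i_at (adjusted p = 0.0125, limma). It was not called against WF at D63860_s_at (adjusted p = 0.178), nor against BUF/N at either (adjusted p = 0.889 and 0.285). For Tgfb3 at U03491_at, F1 alone was not called against F344, BUF/N or WF (adjusted p = 0.0591 to 0.187).

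Other genes of the pathway were counted from lists, each gene by its brightest probe set on average. Their F test counts stand beside 51.8% of all tested probe sets. Among other ligands of the superfamily, 3 of 7 tested genes passed the F test, or 2 to 4 when 1 array was left out. Inhbb, an activin and inhibin beta subunit, averaged 13.5 ± 6.48 in Cop and 116 ± 37.8 in BUF/N (SD, n = 5 each). Its F test adjusted p was 0.000185. The Cop mean lay under the floor of 18.3, so the size of this gap is not a measured ratio. In F1, F344, ACI and WF Inhbb averaged 41.9, 35.2, 18.5 and 53.2, all under the overall median of 78.4. Inha, the inhibin alpha subunit, and Bmp6 also passed the F test (adjusted p = 0.00249 and 0.0452). Of the receptors 4 of 6 passed, or 2 after quantile normalization, in order Acvrl1, Acvr1c, Tgfbr3 and Acvr2b. Acvrl1, a type I receptor of endothelium, averaged 224 ± 32.5 in Cop, 260 ± 43.6 in ACI and 123 ± 22.9 in BUF/N (adjusted p = 8.24e-05), and Acvr1c, also a type I receptor, was lower in F1 than in the mean of the parents by 1.28 (log2 difference -1.28, adjusted p = 0.000354). Against the parents 1 receptor was higher and 2 lower in F1, beside 17.4% and 17.8% of all tested probe sets. These 3 calls were 1 to 4 when 1 array was left out, with 1 without F1 replicate 2, Cop replicate 2 or F344 replicate 1 or 4. With no filter or with the replicate number as a block, 0 were higher and 1 lower. Among 3 Smads, Smad4, the partner shared by both branches, passed (adjusted p = 0.0286), and 0 did without F1 replicate 2, without F1 replicate 3, without both, after quantile normalization or with arrays centred on the median.

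**Figure D5:**
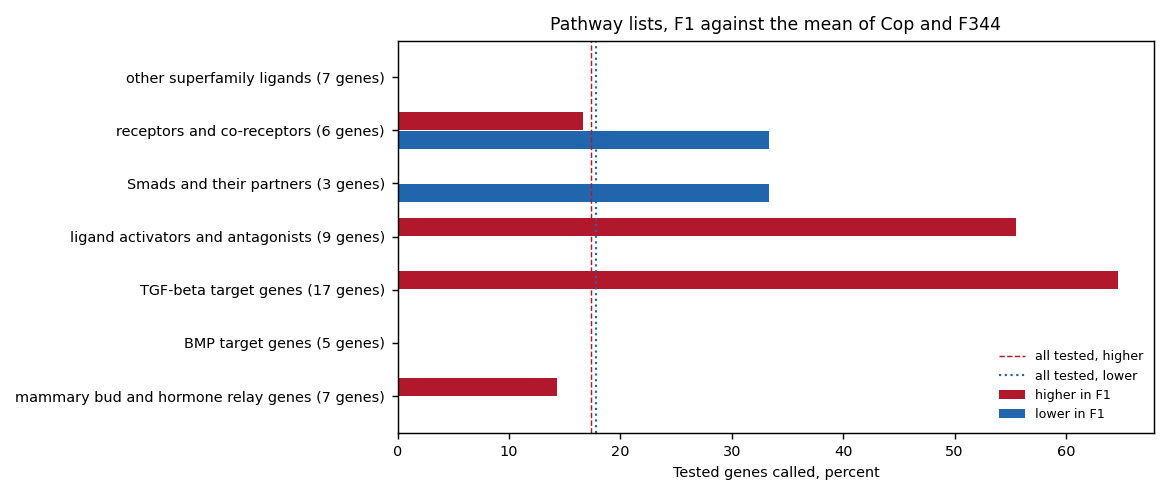
Percent of the tested genes of 7 pathway lists called higher (red) or lower (blue) in F1 than in the mean of Cop and F344, 5 arrays each. Vertical lines give the same for all tested probe sets (17.4% higher, 17.8% lower). In the longest bar 11 of 17 TGF-beta target genes are higher in F1.

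Genes known as targets of TGF-beta were mostly higher in F1 than in its parents. In the F test 13 of 17 passed. In F1 against the mean of Cop and F344, 11 of 17 were higher and 0 lower, beside 17.4% of all tested probe sets higher, with a median log2 difference of 0.53 against 0.02 for all. The 11 calls were also 11 without F1 replicates 2 and 3, and after quantile normalization there were 7 higher and 1 lower. Timp1, an inhibitor of matrix proteases, averaged 1095 ± 207 in F1, 553 ± 103 in Cop and 539 ± 85.4 in F344 (SD, n = 5 each, log2 difference from the parents 1.0, adjusted p = 4.68e-06). Tagln, an actin-binding protein, and Col1a2, a collagen I chain, were higher by 0.70 and 0.69 (adjusted p = 5.54e-05 and 3.68e-05). Ccn1, a matricellular protein, differed among the strains instead, averaging 162 ± 75.7 in Cop and 23.6 ± 12.8 in BUF/N (SD, n = 5 each, F test adjusted p = 1.51e-06). Between Cop and F344 0 of the 17 were called with all arrays, and 0 to 2 when 1 array was left out, and 4, all higher in Cop, with arrays weighted.

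Several of these targets are also markers in the lists for fibroblasts (Col1a1, Col1a2, Col3a1, Sparc) and for myoepithelium and smooth muscle (Tagln, Acta2). The 9 fibroblast markers summed to 45831 to 65307 in F1, against 37642 to 48287 in Cop and 34168 to 37981 in F344. Dcn, Col1a1, Col1a2 and Sparc were higher in F1 than in the mean of the parents, Vim was lower (log2 difference -1.20, adjusted p = 0.000285), and Thy1, Lum, Pdgfra and Col3a1 were not called. With each gene weighted equally the mean centred log2 signal of the list overlapped between F1 and Cop, at 0.032 to 0.402 in F1, -0.068 to 0.217 in Cop and -0.275 to -0.096 in F344. The 9 myoepithelial markers summed to 10658 to 13461 in F1, against 5533 to 8404 in Cop and 6509 to 7969 in F344. The part of either in the target counts was not tested.

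Among genes that activate or bind the ligands, 5 of 9 passed the F test, and 5 were higher in F1 than in its parents, beside 17.4% of all tested probe sets. The calls against the parents were 4 to 5 when 1 array was left out, and 4 with no filter. Dcn, which is also in the fibroblast list, and Bgn, matrix proteoglycans that bind TGF-beta, were higher by 0.94 and 0.86 (adjusted p = 4.9e-06 and 4.64e-06), and Fstl1 and Fmod by 0.63 and 0.51 (adjusted p = 0.00306 and 0.0377). Of 5 BMP targets, 2 passed the F test. Tnfrsf11b, the decoy receptor osteoprotegerin, averaged 241 ± 38.4 in Cop and 526 ± 76.7 in ACI, the highest group (SD, n = 5 each, F test adjusted p = 1.55e-09), and Id1, an inhibitor of helix-loop-helix factors, was highest in Cop (848 ± 196, adjusted p = 0.000669). Msx2, the relative of Msx1, was not called (adjusted p = 0.845). In the list of bud and hormone genes 4 of 7 passed. Prlr, the prolactin receptor, was lower in Cop than in F344 (335 ± 38.9 against 592 ± 82.8, SD, n = 5 each, adjusted p = 0.0284). This call was lost without any 1 of Cop replicates 1, 2 and 4 and F344 replicates 1, 4 and 5, and with no filter, and the list had 0 with the probe set of smallest F test p. Pth1r, Gata3 and Stat5a were the other 3 (F test adjusted p = 0.00242, 0.00469 and 0.00859).

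The genes most like each member over the 30 arrays were ranked by Pearson correlation of log2 signals, as a description, since arrays share strain and scaling. Nearest to Msx1 were Hs6st1, Tnfrsf21, Mgp, Fut1 and Pafah1b1 (r = 0.825 to 0.787, and 0.40 to 0.643 within groups). Nearest to Bmp3 at S77492_i_at were Jund, Aifm2, Tmtc3, St6galnac3 and Tnfrsf11b (r = 0.849 to 0.656, and -0.181 to 0.485 within groups). For Tgfb3 at U03491_at they were Cldn7, Kit, Epcam, Sox10 and Krt8 (r = 0.835 to 0.778, and 0.617 to 0.689 within groups), of which Cldn7, Epcam and Krt8 are in the luminal list. Tgfb1 was nearest to Hsf1, Por, Map2k2, Cited2 and Lgals3bp (r = 0.915 to 0.893), which fell to 0.540 to 0.696 over the 28 arrays without F1 replicates 2 and 3. For the dim Tgfb2 the leading genes were Tagln3, Rhd, Hagh, Gng7 and Msx2 (r = 0.716 to 0.608).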

How the data were processed

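The authors made the deposited intensity values with Affymetrix Microarray Suite 5.0, per the labels, from biotinylated cRNA of total RNA, 1 array per sample. They are linear signals with no detection calls, and each array had the same trimmed mean. No column beyond the labelled samples was present. Probe sets were named through the platform annotation, updated by gene identifier to the GRCr8 RefSeq gene table (6994 matched): 7018 had 1 symbol, 308 several and 1473 none.

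Signals of the 30 single-sample arrays were floored at 18.3, taken as log2 and filtered (5 of 30 arrays above 78.4, with 59 control probe sets left out). The 6 groups were fitted together in limma 3.58.1 (R 4.3.3) with a variance trend, and p-values were adjusted over the 5039 tested probe sets within each comparison. The number of arrays, 5 per group, limits the precision. No 2 arrays held identical values. The fitting code was tested on simulated data. Gene lists used the probe set of highest mean signal. Named genes were all member probe sets, up to 4 passing genes per pathway list by F test p, and the 5 genes most correlated with each tested member. The members, gene lists and alternatives were chosen with earlier results of these data known, as were F1 replicates 2 and 3 and ACI replicates 2 and 5 as arrays that stand apart. Samples of different groups share replicate numbers, and the check of pairing is given with the limits. Promoter windows were read from the RefSeq table, and figures were drawn with matplotlib.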

Additional observations from a re-analysis of the deposited data

Results flagged for a closer look

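In 3 sets of 5 arrays, 1 array lay far from the rest, its gap to the nearest value being over 0.71 of the group's whole range. Chance flags about 1 in 20 groups, and 8 probe sets in 6 groups were looked at. Tgfb3 at U03491_at was 1442.4 in F1 replicate 5, with the next F1 array at 803.3. Bmp3 at S77492_i_at was 178.1 in ACI replicate 5, with the next ACI array at 135.3. Bmp4 was 7.7 in F344 replicate 4, with the next F344 array at 23.6, both near the floor of 18.3.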

How the results depend on the processing

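Of the 43 called member differences, 34 stayed called in each of the 30 fits that left out 1 array. Under the other alternatives 26 stayed called wherever their probe set was tested, and 0 turned round in any fit. The Bmp3 calls were not counted under the filter of 15 arrays, which drops their probe sets. The cause of a lost call was not tested unless named. Requiring 15 of 30 arrays above the median removes both Bmp3 probe sets and Tgfb2 by construction, and left 18 calls over the 15 pairs and 2 calls when Cop and F1 are set against the other 3 strains without ACI. Without F1 replicates 2 and 3, 1 member was called for F1 against its parents, Msx1, and the calls over pairs were 28. Leaving out 1 array gave 31 to 39 calls over the pairs, 6 among the 6 groups, 4 to 5 for Cop and F1 against the same 3 strains, and 3 for F1 against its parents. Other floors, an offset of 50, no filter, quantile normalization, median centring, adjustment over all pairs, weighting of arrays, the pools counted as sixth samples, and eBayes without a trend kept the counts within 1.5 times. With only the arrays compared 30 calls remained, and exact two-sided permutation tests passed 47 pairs at an unadjusted p under 0.05, the smallest p they allow being 0.0079. The probe set with the smallest F test p in place of the brightest gave 11 of 17 TGF-beta targets higher in F1 again. Quantile normalization and median centring shifted the median of all probe sets by 0.10 and 0.11 for F1 against ACI, and centring by 0.11 and 0.12 for Cop and F344 against ACI. With the replicate number as a block the counts were again 36, 6, 3 and 4. Over all groups, same-numbered arrays did not deviate together (median correlation -0.016, against 0.007 for other numbers), and 6 of 30 arrays correlated best with their own number. By pair of groups the median was highest for BUF/N and WF (0.198) and for F1 and F344 (0.145), and 0 pairs were over 0.1 at all 5 numbers. The numbers were therefore not used to pair the samples. A shared order within those pairs of groups was not tested. With 5 arrays a group and no detection calls, dim members such as Bmp4 and Tgfb2 could change by amounts not detectable here.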

Other observations

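The 2 pools were compared as single arrays, without a test. The Cop pool minus the F344 pool gave a log2 ratio of -2.45 for Msx1, 1.28 and 2.28 for Bmp3 at D63860_s_at and S77492_i_at, -0.43 and -1.04 for Tgfb3 at U03491_at and U03491_g_at, 0.92 for Bmp4, -0.77 for Tgfb2 and -0.07 for Tgfb1. For Msx1, Bmp3 and Tgfb3 these had the sign of the difference between the single-sample arrays. For Tgfb1 and Tgfb2 the sign was opposite (0.345 and 0.406 between the single-sample arrays, neither called). The labels used here do not say whether the pools hold RNA of the same samples, so the pools cannot be taken as separate samples.

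Milk protein markers were also followed beside the members. Their 7 genes summed to 18001 to 41635 in F1, 4898 to 11662 in Cop, 7247 to 10719 in F344, 12232 to 22900 in ACI, 12734 to 30161 in BUF/N and 9464 to 25146 in WF. As a description over 30 arrays, Msx1 correlated with their mean level at 0.652 (0.166 within groups), and Tgfb3 at 0.463 and 0.589 (0.535 and 0.563 within groups). Skeletal muscle markers, 15 genes on the array, summed to 366 to 3617 in F1 and up to 28075 in F344. The mean level of the 12 tested ones correlated with the tested members other than Tgfb2 at -0.381 to 0.184. The part of either in the differences of Msx1 and Tgfb3 was not tested. Between the members themselves, Bmp3 at S77492_i_at and Tgfb3 at U03491_at correlated at -0.644 over the arrays and -0.376 within groups.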
